A study of Mus musculus with 4 samples.

Results

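Cytochrome P450 genes were examined in 4 lung tumors of KP mice, as the rows of the deposited count table whose symbol is Cyp followed by a family number, a subfamily letter and a gene number, without pseudogenes. The rule found 91 genes among 39017 rows, all annotated as protein-coding. Of these, 24 had a mean of at least 1 CPM (counts per 1000000 of the effective library size), 40 had no count in any tumor, and the remaining 27 had some counts below that mean. The P450 genes together gave 502, 563, 477 and 500 CPM in tumors 1 to 4 (mean 511 ± 36.5, SD, n = 4), but the genes that made up this sum differed between the tumors.

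The tumors came from male C57BL/6 mice of the genotype K-rasLSL-G12D/WT; p53Fl/Fl, in which Cre switches on the oncogenic K-ras allele and removes p53. Each mouse received 1500 units of a lentivirus with Cre under the PGK promoter, which is active in any cell type the virus enters. All 4 tumors form 1 control group, taken 22 weeks and 5 days after infection, so no treatment or genotype was compared. The labels also name a heterozygous floxed allele without its gene, the deposited log2 columns carry the mark WT, and controls could, per the methods, have either 1 or 2 intact Slc2a1 alleles.

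Macrodissected tumor tissue was dissociated, and RNA of all its cells was sequenced, with total counts between 8151613 and 8799007 per tumor. A count of 3, the upper limit that a count of 0 allows, was worth 0.330 to 0.370 CPM and covers counting error only. In such bulk RNA, fewer cells of a type and less RNA per cell cannot be told apart. The lung origin was checked by markers, and the 9 alveolar type 2 markers summed to 34634 to 67571 CPM, led by Sftpc, a surfactant protein gene. These markers cannot tell tumor from normal lung, so they do not check the tumor label. Defining markers of club, ciliated, endothelial and fibroblast cells were also counted.

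P450 enzymes hold a haem iron, bound through a cysteine of the protein, and use it with oxygen and electrons to oxidize their substrates. Families 1 to 3 mainly handle foreign compounds, family 4 oxidizes fatty acids, and other families make or break down steroids, bile acids, retinoic acid and vitamin D. In the lung of mice, club cells of the airway lining are known for a high P450 content, Cyp2f2 among them, which converts naphthalene into a toxic product.

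The haem-binding loop is what the family shares in sequence, and it is shown for members that differ most in level between tumors or represent a family. It was searched in the annotated coding sequences as 10 codons, with phenylalanine first, glycine after 2 further codons, cysteine after 3 more, and glycine again after 1 more. In capitals is the codon of the cysteine that holds the haem iron.
Cyp1b1: ttctcagtgggcaaacggaggTGCatcggt
Cyp2f2: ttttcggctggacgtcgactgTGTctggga
Cyp2c68: ttctcagcaggaaaacggattTGTgtggga
Cyp3a13: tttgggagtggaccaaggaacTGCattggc
Cyp4v3: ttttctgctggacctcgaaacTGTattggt
Cyp21a1: tttggctgtggggcacgcgtgTGCctggga
Cyp39a1: tttggaggcgggaagttccagTGTcctgga

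On GRCm38 these 30 bases lie in a single coding exon in Cyp1b1 (chr17:79710309-79710338, minus strand, exon 3), Cyp3a13 (chr5:137895267-137895296, minus, exon 12), Cyp21a1 (chr17:34801978-34802007, minus, exon 10) and Cyp39a1 (chr17:43731982-43732011, plus, exon 10). In the other 3 they run across an exon junction, between chr7:27132606-27133235 in Cyp2f2 (plus), chr19:39689234-39699270 in Cyp2c68 (minus) and chr8:45307107-45308407 in Cyp4v3 (minus). Of the 91 members, 86 held the pattern in the coding sequence used, against 138 of 21620 genes with a complete coding sequence (0.638%, the members included). It ran across a junction in 46 of 46 family 2 genes and 15 of 15 family 4 genes with the pattern. Among the 24 genes with a mean of at least 1 CPM, the pattern was in 21, and Cyp20a1, Cyp2s1 and Cyp2b10 lacked these letters in the transcript used.

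Of the P450 genes, 24 of 91 (26.4%) reached a mean of 1 CPM, beside 60.7% of 21303 annotated protein-coding genes and 36.5% of all rows. Another 17 genes exceeded 3 counts in some tumor without that mean, and 50, the 40 without counts included, stayed at 3 counts or fewer in all tumors. Of the 24 detected genes, 11 had a mean of at least 10 CPM and held 87.0% of the mean P450 sum, and 13 lay between 1.33 and 8.32 CPM. Between 41 and 45 members had a count in each tumor.

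Most P450 genes lie in clusters of neighboring paralogs, where 68 members formed 10 groups with gaps of at most 500 kb. Of these 68 genes, 14 were detected (20.6%), against 10 of the 23 that stand alone (43.5%). The 14-gene Cyp2c cluster on chromosome 19 (39007019 to 40187333) had 4 detected genes and 7 without a count. The 13-gene Cyp2a, Cyp2b, Cyp2f and Cyp2s cluster on chromosome 7 (25802475 to 27158668) had 3, namely Cyp2f2, Cyp2s1 and Cyp2b10, and 6 without a count. All 7 members in the Cyp4f cluster on chromosome 17 (32452723 to 32947402) had counts, and 4 were detected. By contrast, 5 of 6 genes of the clustered Cyp3a group and 6 of 8 Cyp2d genes, which are best known from liver, had no count.

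**Figure D1:**
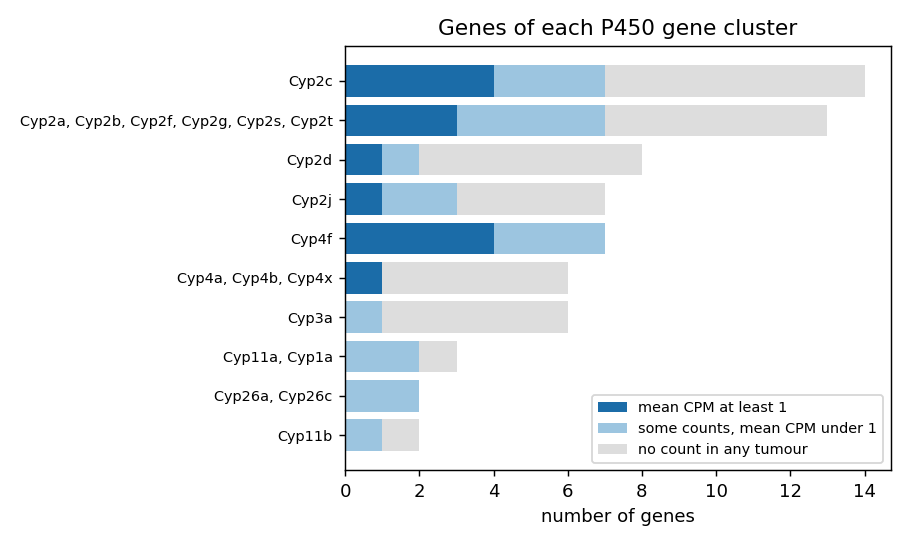
Number of genes (x axis) in each cluster of 2 or more P450 genes (y axis, named by the subfamilies in it), divided by whether the mean was at least 1 CPM, lower, or without a count in any of the 4 tumors. The Cyp4f cluster has no gene without counts, and the Cyp2c cluster has 7 of 14.

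Levels of different genes were compared per kilobase of annotated exon. The highest mean levels were 30.8 ± 22.4 CPM per kilobase for Cyp2f2, 16.96 ± 12.1 for Cyp2c68, 15.3 ± 1.73 for Cyp20a1 and 14.4 ± 18.2 for Cyp21a1 (SD, n = 4). Between 12.1 and 13.3 CPM per kilobase came Cyp3a13, Cyp4v3, Cyp39a1 and Cyp1b1, followed by Cyp4f16 (9.43), Cyp2s1 (7.88) and Cyp4f13 (4.54). Merged exons exceed the longest transcript in Cyp4f16 (3069 against 2242 bases), Cyp2s1 (4938 against 3161) and Cyp4f13 (4441 against 1752). How far these genes lie below the others therefore depends on the length used. Cyp2s1 and Cyp4f13 came last in the order with either length. None of the 10 pairs of neighbors in this order was in the same order in 4 of 4 tumors. Exact two-sided sign-flip permutation tests of the within-tumor log2 differences gave p values from 0.25 to 1.0, and from 0.972 to 1.0 after Benjamini-Hochberg adjustment over the 10 pairs. With 4 tumors the smallest possible p is 0.125, so no pair could pass 0.05.

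The leading gene by level was not the same in each tumor. In tumor 1 it was Cyp21a1 at 41.3 CPM per kilobase, 23.4% of the summed P450 level. In tumor 2 Cyp2c68 led with 30.6 CPM per kilobase (15.9%), ahead of Cyp2f2 with 25.2. Cyp2f2 led in tumor 3 with 62.9 CPM per kilobase (36.3%) and in tumor 4 with 24.7 (14.7%). Together Cyp2f2, Cyp2c68 and Cyp20a1 held 25.2, 37.9, 44.5 and 34.5% of the summed level in tumors 1 to 4 (mean 35.5% ± 8.06, SD, n = 4). Without division by length the top genes were Cyp1b1, Cyp2f2 and Cyp4v3, with 35.8% of the sum.

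**Figure D2:**
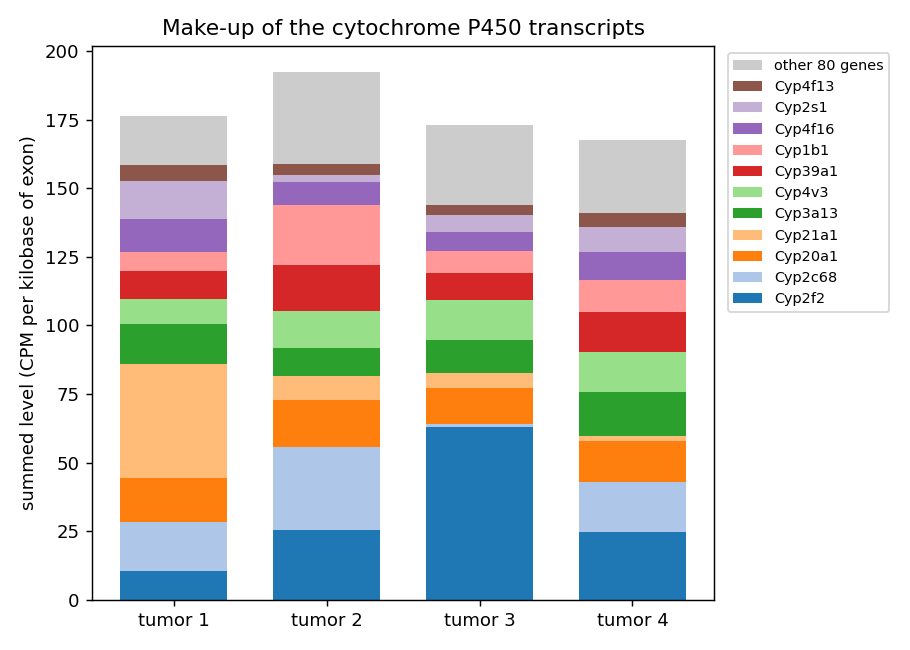
Summed level of P450 genes in CPM per kilobase of exon (y axis) in each of the 4 tumors (x axis), stacked by gene for the 11 genes with a mean of at least 10 CPM, with the other 80 in gray. Cyp21a1 is the widest band in tumor 1 (23.4%) and Cyp2f2 in tumor 3 (36.3%).

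Whether the tumors differed by more than counting noise was tested per gene, by comparing its 4 counts with Poisson expectations (chi-square) and with Benjamini-Hochberg adjustment over the 14225 genes with a mean of at least 1 CPM. Past an adjusted p of 0.05 were 20 of 24 P450 genes (83.3%), against 76.7% of all genes tested. Among genes of 1 to 10 CPM it was 9 of 13 (69.2%) against 55.5%, and among those of 10 to 100 CPM 11 of 11 against 81.1%. With 1 library per tumor, differences between animals and between library preparations cannot be told apart. The p values ask whether these libraries differ beyond counting noise. They also fall with abundance, so they do not rank the size of the spread.

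The size of the spread is given by the SD of log2 CPM over the 4 tumors. Its median was 0.74 in the 24 P450 genes and 0.29 in all genes tested. At 1 to 10 CPM it was 1.009 against 0.49, and at 10 to 100 CPM 0.38 against 0.25. In 15 of 24 P450 genes the highest tumor was at least 2 times the lowest, which held for 28.5% of all genes tested. The gene-wise dispersion lay above the abundance trend in 12 of 24 P450 genes with edgeR, against 23.1% of all genes, and in 13 of 24 with DESeq2, against 25.5%. The P450 sum itself had a highest tumor 1.18 times the lowest and a coefficient of variation of 7.15%. Each of the 11 most abundant genes varied by more, between 11.3 and 127%. Summing genes with different highest tumors lowers the relative spread by itself, and no sum of other genes was set beside it.

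The highest and the lowest values of the P450 genes were divided among the tumors. The highest CPM was in tumors 1 to 4 for 6, 8, 8 and 2 of the 24 genes, beside 31.4, 20.4, 30.2 and 18.0% of all genes tested. The lowest was there for 7, 4, 8 and 5 genes, beside 30.4, 19.4, 32.5 and 17.7%. One gene, Cyp2c68, had a tumor set apart from the other 3 by Dixon's ratio, 1 of 24 against 5.86% of all genes tested. Its ratio of 0.833 was only just above the critical value.

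**Figure D3:**
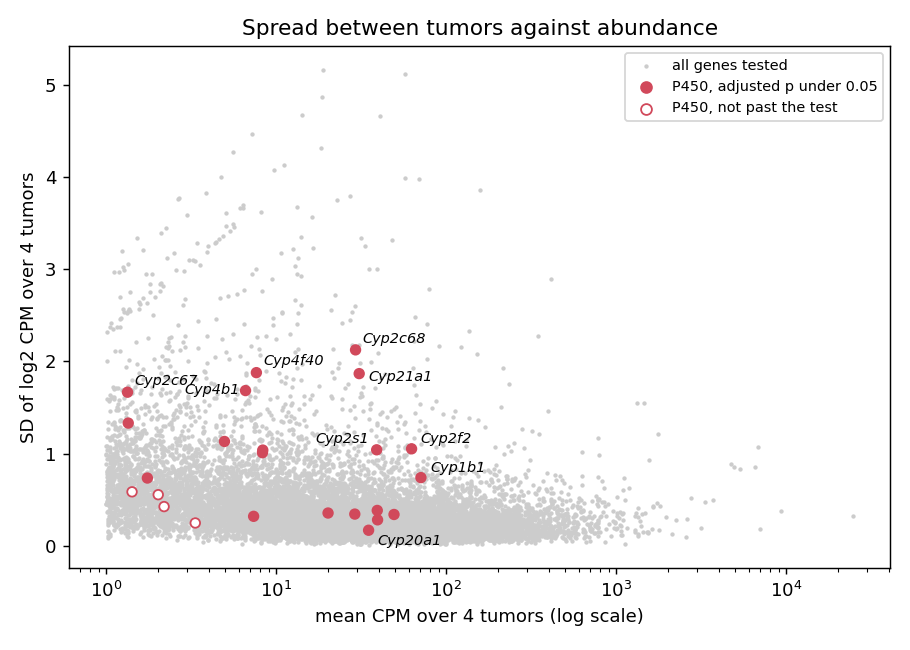
SD of log2 CPM over 4 tumors (y axis) against mean CPM (x axis, log scale) for all 14225 genes tested (gray) and the 24 P450 genes (red, filled where the adjusted p was under 0.05). Cyp2c68, Cyp4f40, Cyp21a1, Cyp4b1 and Cyp2c67 lie above an SD of 1.5 and Cyp20a1 lies at 0.17.

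The enzymes for foreign compounds, families 1 to 3, were the largest set with 58 genes, of which 12 were detected, 10 of these passed the test (beside 76.7% of all genes tested) and 30 had no count. Their summed CPM was 229, 322, 278 and 278 in tumors 1 to 4 (mean 277 ± 37.8, SD, n = 4). Cyp1b1, Cyp2f2, Cyp3a13, Cyp2s1 and Cyp2c68 had a mean of at least 10 CPM. Cyp2e1, a major P450 of liver that oxidizes ethanol, had 0 counts in all 4 tumors.

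Cyp2f2 (ENSMUSG00000052974, chromosome 7, 27119909 to 27133660, plus strand) had 21.3, 51.1, 127 and 49.95 CPM in tumors 1 to 4, from 194, 440, 1032 and 420 counts (mean 62.4 ± 45.4, SD, n = 4). Tumor 3 was the highest, 5.97 times tumor 1, and tumors 2 and 4 lay close together between them. The SD of log2 CPM was 1.05, and the mean without tumor 3 was 40.9 CPM. An antisense gene overlaps its exons, Gm15883, and had 0 counts.

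Cyp4b1 belongs to family 4 but is treated here with Cyp2f2, since it too is a known P450 of airway club cells. It had 0.990, 2.79, 15.7 and 6.90 CPM in tumors 1 to 4, from 9, 24, 127 and 58 counts (mean 6.59 ± 6.54, SD, n = 4). It was also lowest in tumor 1 and highest in tumor 3, 15.8 times as high, with an SD of log2 CPM of 1.68 and a mean of 3.57 CPM without tumor 3. Cyp2b10, a phenobarbital-inducible enzyme, had 3.30, 4.18, 12.96 and 12.8 CPM in tumors 1 to 4. It was low in tumors 1 and 2 and high in tumors 3 and 4.

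Of 8 club cell markers, 7 were tested, 7 passed the test, and 5 were lowest in tumor 1, beside 76.7% of all genes tested that passed and 30.4% that were lowest in that tumor. Their summed CPM was 256, 1248, 1429 and 836 in tumors 1 to 4. Scgb1a1, the secretory protein that defines club cells, had 9.79, 457, 736 and 450 CPM, and Chad was at 0 in tumor 1. The markers were highest in tumor 2 for 3 genes and in tumor 3 for 4 genes, while Cyp2f2 and Cyp4b1 were highest in tumor 3. Low values in tumor 1 were not particular to club cell markers, as 7 of 9 alveolar type 2 markers were also lowest there. Those 9 were highest in tumors 2, 3 and 4 for 2, 3 and 4 genes. The part of club or alveolar type 2 cells in the P450 values was not tested.

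**Figure D4:**
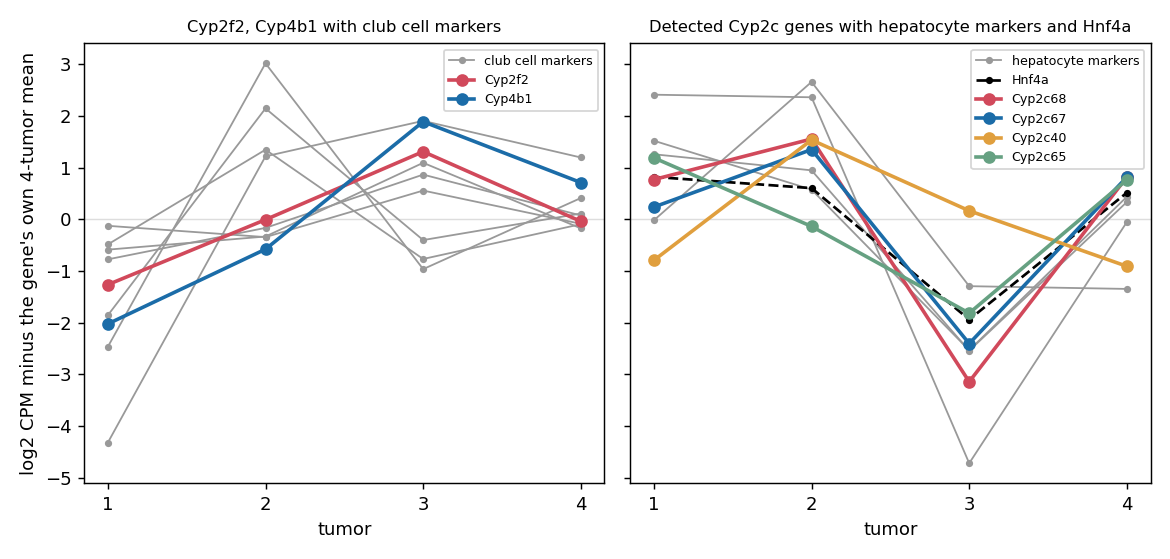
Log2 CPM of each gene minus its own mean over the 4 tumors (y axis) by tumor (x axis), with lines that only join the values of a gene. Left, Cyp2f2 and Cyp4b1 with the 7 tested club cell markers (gray), lowest in tumor 1 for both P450 genes and 5 markers. Right, the 4 detected Cyp2c genes with Hnf4a (dashed) and the 4 tested hepatocyte markers (gray), where Cyp2c68, Cyp2c67, Cyp2c65, Hnf4a and 3 of the markers were lowest in tumor 3 and Cyp2c40 in tumor 4.

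Cyp2c68 (ENSMUSG00000074882, chromosome 19, 39688834 to 39741054, minus strand) belongs to a subfamily that oxidizes drugs and arachidonic acid. It had 30.6, 52.7, 1.97 and 31.6 CPM in tumors 1 to 4, from 278, 454, 16 and 266 counts (mean 29.2 ± 20.8, SD, n = 4). Tumor 3 was far below the other 3 tumors, 26.7 times lower than tumor 2. The SD of log2 CPM was 2.13 in all tumors and 0.44 without tumor 3. Its coding sequence was 98.1% identical to that of Cyp2c40, 97.1% to Cyp2c67 and 96.5% to Cyp2c69, so the way reads were divided between these 4 genes is uncertain.

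Summed over these 4 genes, the CPM was 34.9, 67.6, 6.91 and 35.9 in tumors 1 to 4, lowest in tumor 3 and highest in tumor 2, by 9.78 times. Most of this sum was Cyp2c68 in tumors 1, 2 and 4. The other 3 genes together had 4.29, 14.9, 4.94 and 4.28 CPM, not lowest in tumor 3. In tumor 3 they made up most of the sum, as Cyp2c68 had 1.97 CPM there. All 14 Cyp2c genes without Cyp2c68 summed to 10.01, 17.1, 6.05 and 8.80 CPM, a highest tumor 2.82 times the lowest. Cyp2c40 alone had 2.20, 11.3, 4.32 and 2.02 CPM and was not lowest in tumor 3. Cyp2c67 had 1.10, 2.44, 0.123 and 1.67 CPM, with 1 count in tumor 3. Cyp2c65, which shares 72.7% of its coding bases with Cyp2c68, had 2.42, 0.929, 0.247 and 1.78 CPM. It was also lowest in tumor 3, with 2 counts there, so Cyp2c67 and Cyp2c65 were both under the limit of 3 counts in that tumor. All 4 detected Cyp2c genes passed the test, beside 76.7% of all genes tested.

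Beside these genes, Hnf4a, a nuclear receptor of liver and gut that controls many liver P450 genes, had 152, 130, 22.3 and 123 CPM in tumors 1 to 4. Tumor 3 stood apart from the other 3 tumors for Hnf4a as well. It was the 1 gene with a tumor apart among 9 tested receptors and partners that control P450 genes, beside 5.86% of all genes tested. Of 8 hepatocyte markers, 4 were tested and 4 passed the test, 3 of them lowest in tumor 3, beside 76.7% of all genes tested that passed and 32.5% that were lowest in that tumor. Their sum was 494, 280, 28.8 and 226 CPM, nearly all of it Alb, the albumin gene, with 455, 237, 27.4 and 215. Apoa2 was at 0 in all 4 tumors, Serpina1a was at 0 in 3 of them, and Fgb and Ahsg stayed below a mean of 1 CPM. The liver enzymes Cyp2e1, Cyp7a1 and Cyp8b1 had no count in any tumor. Which cells gave the Cyp2c, Hnf4a and Alb counts was not tested.

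Cyp1b1 (ENSMUSG00000024087, chromosome 17, 79701537 to 79715061, minus strand) activates polycyclic aromatic compounds and hydroxylates estrogens. It had 40.4, 128, 47.1 and 68.2 CPM in tumors 1 to 4, from 367, 1100, 382 and 573 counts (mean 70.9 ± 39.7, SD, n = 4), the highest mean CPM of the members. Tumor 2 was the highest, 3.16 times tumor 1, and the SD of log2 CPM was 0.74, or 0.39 without tumor 2. The 7 fibroblast markers summed to 429 CPM in tumor 2 and to 325 to 568 CPM in the others.

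Cyp1a1, its relative with 62.3% identical coding bases, had 0, 0, 1 and 2 counts in tumors 1 to 4 and was not detectable above the limit of 3 counts in any tumor. Both genes are known targets of the aryl hydrocarbon receptor, which was present with 107, 77.4, 74.9 and 81.7 CPM of Ahr and 80.3 to 113 CPM of its partner Arnt. Tiparp, another target, had 45.9 to 49.7 CPM and did not pass the test (adjusted p 0.609, chi-square test).

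The promoters of Cyp1a1 and Cyp1b1 are printed because these related genes differed in level. The core of the receptor's binding element, GCGTG on either strand, is in capitals. Each window runs from 250 bases before to 50 after the RefSeq start, on GRCm38.p6, at chr9:57697363-57697662 (plus) for Cyp1a1 and chr17:79715012-79715311 (minus) for Cyp1b1.
Cyp1a1: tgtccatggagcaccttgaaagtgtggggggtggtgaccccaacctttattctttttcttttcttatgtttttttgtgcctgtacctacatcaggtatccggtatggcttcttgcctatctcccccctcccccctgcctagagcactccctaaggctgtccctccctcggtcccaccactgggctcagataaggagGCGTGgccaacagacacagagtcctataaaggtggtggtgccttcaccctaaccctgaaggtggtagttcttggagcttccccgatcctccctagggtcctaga
Cyp1b1: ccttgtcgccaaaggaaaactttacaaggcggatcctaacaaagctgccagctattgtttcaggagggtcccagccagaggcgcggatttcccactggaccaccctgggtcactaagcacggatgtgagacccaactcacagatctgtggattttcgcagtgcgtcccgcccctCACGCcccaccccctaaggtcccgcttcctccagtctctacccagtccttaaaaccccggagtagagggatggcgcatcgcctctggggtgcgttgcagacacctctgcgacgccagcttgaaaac

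Each window held 1 match, which begins 54 bases upstream of the start in Cyp1a1 and 76 bases upstream in Cyp1b1. The same 5 letters were in 32.4% of 32851 RefSeq windows of this length and in 20.99% of 81 windows of 71 members, so a match describes the sequence only.

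Cyp2s1, a P450 of epithelia outside the liver, had 67.6, 12.4, 30.7 and 45.0 CPM in tumors 1 to 4, from 614, 107, 249 and 378 counts (mean 38.9 ± 23.3, SD, n = 4). It was lowest in tumor 2, where Cyp1b1 was highest, and its SD of log2 CPM was 1.04, or 0.57 without tumor 2. It lies in the same cluster as Cyp2f2, on chromosome 7 at 25802475 to 25816913 (minus strand), but its highest tumor was the one in which Cyp2f2 was lowest. It shares 260 exon bases with Gm26707 on the opposite strand, which had at most 0.550 CPM, so its count is uncertain there if strand was not used in counting.

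Cyp3a13, a member of the main drug-metabolizing subfamily, had 43.9, 30.9, 35.5 and 47.2 CPM (mean 39.4 ± 7.50, SD, n = 4). Its tumors differed by 1.53 times from lowest to highest. Of the 6 other Cyp3a members, 5 had no count, and Cyp3a57 had 2 to 9 counts per tumor. Cyp2j6, of a subfamily that forms epoxides of arachidonic acid, had 3.41, 16.7, 4.57 and 8.44 CPM in tumors 1 to 4 and was highest in tumor 2. Cyp2r1, which hydroxylates vitamin D, and Cyp2d22 had 1.07 to 3.95 CPM and were not shown to vary beyond counting noise (adjusted p 0.164 and 0.537, chi-square test).

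Of the 15 fatty acid enzymes of family 4, 7 were detected, 6 of these passed the test (76.7% of all genes tested did) and 5 had no count. Their summed CPM was 112, 126, 119 and 134 in tumors 1 to 4 (mean 123 ± 9.36, SD, n = 4). Cyp4v3, the mouse counterpart of an enzyme lost in a human crystalline retinal dystrophy, had 34.2, 50.6, 55.2 and 56.9 CPM (mean 49.2 ± 10.3, SD, n = 4). Tumor 1 was low and the other 3 lay close together. The SD of log2 CPM was 0.34, or 0.087 without tumor 1 with an adjusted p of 0.250 (chi-square test). Cyp4v3 shares 313 exon bases with Gm45753 on the same strand, which had at most 0.116 CPM, so its count is uncertain there.

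The Cyp4f enzymes add a hydroxyl group to the end of leukotriene B4 and other fatty acids. Cyp4f16 had 37.1, 25.4, 21.6 and 31.6 CPM in tumors 1 to 4, and Cyp4f13 had 25.9, 17.4, 14.9 and 22.4. Both followed the same order of tumors, with tumor 1 highest and tumor 3 lowest. Cyp4f40, from the same cluster, had 2.20, 20.9, 0.987 and 6.42 CPM, from 20, 180, 8 and 54 counts (mean 7.63 ± 9.15, SD, n = 4). It was highest in tumor 2, by 21.2 times over tumor 3, with an SD of log2 CPM of 1.88 and a mean of 3.23 CPM without tumor 2. Cyp4f17 had 9.02, 5.34, 7.90 and 7.14 CPM. Coding sequences of the 5 detected Cyp4f genes were 76.9 to 84.5% identical, and a stretch of 776 bases of Cyp4f16 is shared at 98.2% with Cyp4f37, which had at most 0.494 CPM.

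Cyp4f18, which lies outside the cluster on chromosome 8 and acts on leukotriene B4 in neutrophils, had 1.10, 1.51, 2.22 and 0.833 CPM in tumors 1 to 4. It was not shown to vary beyond counting noise (adjusted p 0.111, chi-square test). Of 6 neutrophil markers, 5 were tested and 5 passed, beside 76.7% of all genes tested. The 6 markers summed to 30.3, 47.0, 66.9 and 27.5 CPM in tumors 1 to 4, and Ly6g was at 0 in 3 tumors. Single markers differed in their highest tumor, which was tumor 1 for S100a8, with 10.9 CPM, and tumor 4 for Retnlg, with 3.92 CPM. The part of neutrophils was not tested. Cyp4f18 overlaps 181 exon bases of Zfp961 on the opposite strand, which had 29.7 to 35.9 CPM, so its low count is uncertain.

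**Figure D5:**
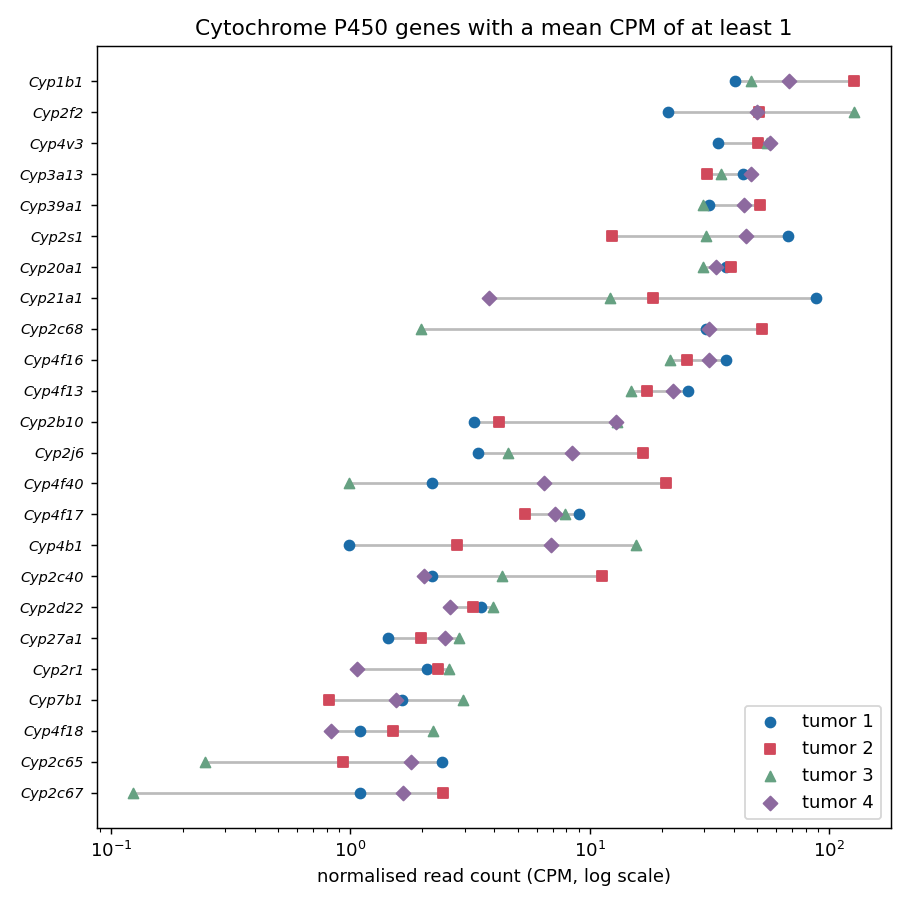
CPM (x axis, log scale) of the 24 P450 genes with a mean of at least 1 CPM (y axis, ordered by mean CPM), with a point for each of the 4 tumors and a gray line from lowest to highest. Cyp20a1 spans 29.9 to 38.9 CPM, while Cyp2c68 spans 1.97 to 52.7 and Cyp21a1 3.81 to 88.5.

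The steroid hormone enzymes were 6 genes, of which Cyp21a1 was the only gene detected. Cyp21a1 (ENSMUSG00000024365, chromosome 17, 34801348 to 34804561, minus strand), a steroid hydroxylase of the adrenal cortex, had 88.5, 18.4, 12.2 and 3.81 CPM in tumors 1 to 4, from 804, 158, 99 and 32 counts (mean 30.7 ± 38.96, SD, n = 4). Tumor 1 was the highest, 23.2 times tumor 4, with tumors 2 and 3 between them. The SD of log2 CPM was 1.87, and without tumor 1 it was 1.17 with a mean of 11.3 CPM.

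The other enzymes of steroid synthesis were low or without counts in all tumors. Cyp11a1, which makes the first cut of the cholesterol side chain, had 1, 15, 1 and 7 counts. Cyp11b1, the enzyme that finishes corticosterone, had at most 1 count in any tumor, and Cyp17a1 and Cyp19a1, the aromatase, had none. The pseudogene Cyp21a2-ps, which shares a stretch of 1182 bases at 97.4% identity with Cyp21a1, had 0.330, 0.116, 0.123 and 0 CPM, so reads could have been divided or lost between them. Tnxb, which shares 105 bases, had 27.4, 6.85, 21.5 and 19.98 CPM. Like Cyp21a1 it was highest in tumor 1, but it was lowest in tumor 2 and not in tumor 4.

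Among the 7 genes of families 7, 8, 27, 39 and 46, which mainly act on cholesterol, oxysterols and bile acids, 3 were detected. Of these, 2 passed the test, beside 76.7% of all genes tested. Cyp39a1, an oxysterol hydroxylase, had 31.5, 51.6, 29.7 and 44.1 CPM in tumors 1 to 4 (mean 39.2 ± 10.4, SD, n = 4), high in tumors 2 and 4. Cyp7b1, which also acts on oxysterols, had 1.65, 0.813, 2.96 and 1.55 CPM (adjusted p 0.013, chi-square test), and the test was not passed without tumor 2 (0.103) or without tumor 3 (0.320). Cyp27a1, a mitochondrial sterol hydroxylase, had 1.43, 1.97, 2.84 and 2.50 CPM (adjusted p 0.238). Cyp7a1, the rate-limiting enzyme of bile acid synthesis, and Cyp8b1 had no count.

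Cyp20a1, whose substrate is not established, had the lowest SD of log2 CPM of the 24 genes, counting noise included, with 37.0, 38.9, 29.9 and 33.8 CPM in tumors 1 to 4 (mean 34.9 ± 3.96, SD, n = 4). This SD was 0.17, and it passed the test (adjusted p 0.015, chi-square test) but not without tumor 2 (0.0559) or without tumor 3 (0.266). It shares short stretches with 38 other annotated genes, so part of its count is uncertain. The 3 Cyp26 enzymes, which inactivate retinoic acid, had 0 to 10 counts per gene and tumor, led by Cyp26b1 with 4, 1, 10 and 4 counts. Cyp24a1, which inactivates vitamin D, had 1 count in all.

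The 3 P450 enzymes measured with symbols outside the rule all passed the test, beside 76.7% of all genes tested. Cyp51, which acts in cholesterol synthesis, had 70.3, 80.3, 44.7 and 55.5 CPM in tumors 1 to 4 (mean 62.7 ± 15.7, SD, n = 4). Tbxas1, the thromboxane synthase, had 5.61, 6.74, 14.7 and 7.97 CPM and did not pass without tumor 3 (adjusted p 0.217, chi-square test). Ptgis, the prostacyclin synthase, had 4.95, 3.25, 1.48 and 1.31 CPM, high in tumor 1 where Tbxas1 was low.

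The electron partners of the P450 enzymes were measured beside them. Por, the reductase that hands electrons to microsomal P450 enzymes, had 130, 119, 68.1 and 109 CPM in tumors 1 to 4 (mean 106.6 ± 26.98, SD, n = 4), and its SD of log2 CPM was 0.42, or 0.12 without tumor 3. All 4 microsomal partners measured passed the test, with a median SD of log2 CPM of 0.26. Of the mitochondrial partners, Fdx1 and Fdx1l passed and Fdxr did not (adjusted p 0.668, chi-square test). Both results stand beside 76.7% of all genes tested that passed.

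For haem, which each P450 enzyme needs, 11 genes were tested, and 9 passed, and this and the counts of the lists that follow stand beside 76.7% of all genes tested. Alas1, the first and rate-limiting step, had 85.7, 130, 110 and 82.7 CPM in tumors 1 to 4, and Hmox1, which breaks haem down, had 58.2, 91.9, 139 and 61.7. Of 13 receptors and partners that control P450 genes, 9 were tested and 7 passed, while Nr1i2 and Nr1i3, the liver receptors for foreign compounds, stayed below a mean of 1 CPM. Of 11 retinoid genes, 10 were tested and 8 passed. Of 9 other enzymes of the first phase of drug metabolism, 8 were tested and 7 passed. Among these Fmo2, a flavin enzyme of lung, had 103, 304, 70.5 and 297 CPM.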

How the data were processed

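RNA was sequenced from 4 macrodissected lung tumors, with 1 library per tumor and 1 group. Reads were single-end; the authors used Cutadapt for trimming, HISAT2 with mm10 for alignment and, per the submitters' processing notes, featureCounts 1.4.4 for counting. The strand setting and annotation release are not given in the sources used here. The deposited tables hold raw counts, and 156068 of 156068 values were equal in the combined and single-tumor tables. The deposited log2 table (TMM and voom by the authors) served as an alternative only.

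The 91 genes and all lists were chosen with earlier results of these data known. GENCODE M21 holds 3 further P450 names of the same form that the symbol rule did not find, Cyp4f37 among them. Counts of members and clusters cover only the genes found by the rule. Effective sizes are totals times TMM factors (edgeR 4.0.16, R 4.3.3). Log2 CPM adds 0.5 to the count and 1 to the effective size. Genes with a mean of at least 1 CPM were tested by chi-square against Poisson expectations (3 degrees of freedom) and adjusted by Benjamini-Hochberg. The quasi-likelihood test was not used because 1 group leaves no contrast. A tumor stood apart where Dixon's ratio passed its critical value, which noise passes in 5% of genes. Level is CPM divided by the kilobases of merged exons in GENCODE M21 (GRCm38). Copies are transcripts of other genes that match over 80 nt or more at 97% identity or higher (BLAST 2.17.0). Of the 91 genes, 35 had such a copy and 18 overlapped exons of another gene. Promoters are from RefSeq.

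Genes named are those with a mean of at least 10 CPM, the 5 with the largest SD of log2 CPM, any with a tumor apart, the highest of each family and a set of fixed names. Genes named outside this rule (Cyp2b10, Cyp2c40, Cyp2c65, Cyp2j6, Cyp2r1, Cyp2d22, Cyp4f17, Cyp4f18 and those with few or no counts) were chosen after their values were seen. Alternatives were DESeq2 1.42.0 size factors and dispersions, totals alone, other count minimums, other lengths and leaving out each tumor. Symbols Cyb5a, Cfap126 and Adgre1 of the lists were not matched. All other lists measured are given in the closing section.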

Additional observations from a re-analysis of the deposited data

Results flagged for a closer look

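Of 32 results checked, 1 had a tumor far from the others. Cyp2c68 had 1.97 CPM in tumor 3, set apart from 30.6, 52.7 and 31.6 CPM in tumors 1, 2 and 4 by Dixon's ratio of log2 CPM. The ratio was 0.833, only just above its critical value. Noise alone flags about 5% of genes in groups of 4, and 5.86% of all genes tested were flagged.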

How the results depend on the processing

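The number of detected P450 genes was 24 with DESeq2 size factors and with library totals alone, 16 at a mean of at least 5 CPM, and 51 with no minimum, where any count sufficed. The number past the chi-square test was 20 under both other scalings and 25 with no minimum, and 13 genes lay above DESeq2's dispersion trend. Of all genes tested, 76.6 and 77.3% passed under those scalings, 53.5% with no minimum and 62.3 to 71.9% with 1 tumor left out. With no minimum, 6 genes in place of 1 had a tumor apart. Leaving out 1 tumor gave 24 to 25 detected genes, 17 to 21 past the test, 33.2 to 38.97% for the share of the 3 highest genes (with Cyp21a1 among them in 3 of 4 cases), and 0 to 3 pairs of neighbors in the same order in every remaining tumor (3 without tumor 1). Leaving out a tumor moved the mean CPM of Cyp21a1, Cyp4f40, Cyp4b1 and Cyp2f2 by 2.71, 2.37, 1.85 and 1.53 times, with the values given above. Of the recalculated spreads of single genes, 168 kept their side of the threshold and 8 no longer passed the test, all after a tumor was left out. They were those of Cyp20a1, Cyp4v3, Cyp7b1 and Tbxas1 given above, and Cyp2c67, with an adjusted p of 0.139 without tumor 3 (chi-square test) and a mean below 1 CPM without tumor 2. No paired analysis was possible because the samples form 1 group. Depth limits the 50 genes at 3 counts or fewer, which were not detectable rather than absent, and copies limit the Cyp2c genes.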

Other observations

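Other cell type markers were measured beside the P450 genes. The 6 alveolar type 1 markers, 6 of 6 past the test, summed to 1710, 1097, 1969 and 1651 CPM in tumors 1 to 4 and were all lowest in tumor 2, beside 76.7% of all genes tested that passed and 19.4% that were lowest there. Of 9 alveolar type 2 markers, 9 passed the test and 7 were lowest in tumor 1, beside 30.4% of all genes tested. The 6 ciliated cell markers matched, 5 of them past the test, summed to 262, 313, 313 and 294 CPM, most of it Tubb4b, and Dnah5 was at 0 in tumor 1. The 5 macrophage markers matched, all past the test, summed to 181, 197, 261 and 186 CPM. The 6 endothelial markers, 6 past the test, summed to 212, 211, 272 and 212 CPM. The 4 general epithelial markers, 4 past the test, summed to 3972, 2587, 2488 and 2632 CPM, and 7 of 7 fibroblast markers passed. The 4 B cell markers, of which 1 was tested and passed, summed to 6.16, 13.5, 18.4 and 18.0 CPM.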
